A study of Danio rerio with 40 samples.

Results

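The Hox cluster genes were taken as the rows of the count table whose gene name begins with hox, a cluster letter from a to d, a paralogue number and a copy letter a or b. This rule used names only and found 48 of 32520 rows, in 7 clusters and 13 paralogue groups. The clusters held 6 (hoxaa), 5 (hoxab), 11 (hoxba), 4 (hoxbb), 11 (hoxca), 4 (hoxcb) and 7 (hoxda) of the 48 genes, and all 48 had enough reads to be tested.

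Hox genes encode homeodomain transcription factors that give cells their position along the axis from head to tail. Within a cluster the genes are arranged in the order of the body levels at which they act, so low-numbered paralogue groups work in the hindbrain and anterior trunk, the middle groups in the trunk, and the highest group at the tail end, in the cloaca and in the fins. In mouse, Gdf11, a ligand of the TGF-beta family that signals through Smad2 and Smad3, sets when the posterior Hox genes come on, and in zebrafish hoxa13a, hoxa13b and hoxd13a are needed to form fin rays.

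Gene expression was compared between zebrafish that carried mutations in both copies of smad3a, smad3b, smad6a and smad6b together (the quadruple knockout, qKO) and wild-type control cousins. The smad3 genes encode transducers of TGF-beta signals, and the smad6 genes encode inhibitors of BMP signalling. Each genotype had 5 pools, and each pool held 5 whole animals grown at 27 °C to 5 days post fertilization, from which 200 ng of RNA went into a stranded total RNA library. Because whole animals were pooled, no tissue was separated, and because the controls were cousins, differences between families cannot be told apart from the genotype. The labels call the pools biological replicates without saying whether their animals shared parents, so p-values measure the spread between these pools.

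Library totals ranged from 16062147 to 191289475 counts, of which Hox genes took 0.0473% to 0.0512% in controls and 0.0524% to 0.0612% in qKO. Levels are given as CPM, the usual per-library scale of read counts, after TMM (trimmed mean of M values) scaling of the library totals. The targeted genes were read first: smad3a measured 41.2 ± 3.48 CPM in controls and 11.0 ± 1.71 CPM in qKO (SD, n = 5 each) and smad3b 13.8 ± 0.487 CPM in controls and 6.52 ± 0.494 CPM in qKO (SD, n = 5 each). Both were lower in every qKO pool than in every control pool, with log2 fold changes of -1.90 and -1.09 (adjusted p = 4.16e-07 and 5.11e-06, edgeR). The smad6a level was 31.4 ± 2.52 CPM in controls and 40.3 ± 2.86 CPM in qKO (SD, n = 5 each) and the smad6b level 25.8 ± 1.31 CPM in controls and 39.8 ± 2.29 CPM in qKO (SD, n = 5 each), higher in every qKO pool (log2 fold changes 0.36 and 0.62; adjusted p = 0.00490 and 7.20e-05, edgeR). Transcript levels alone do not show the mutations. Pools 1 and 2 stood apart from pools 3 to 5 in both genotypes: nr1d1, a circadian clock gene, measured 8.93 and 8.44 CPM in control pools 1 and 2 against 42.1 to 48.0 CPM in control pools 3 to 5, and 334 and 352 CPM in qKO pools 1 and 2 against 1.59 to 2.62 CPM in qKO pools 3 to 5. The labels name no such sets. Within them nr1d1 also differed between genotypes, with log2 fold changes of 5.31 in pools 1 and 2 and -4.43 in pools 3 to 5. A set is therefore not matched between genotypes, and this difference cannot be told apart from genotype within a set. Results are given for all pools, and group 13, the called Hox genes as a whole and most gene lists also for each set. Markers of neurons, muscle, cartilage, epidermis, intestine and blood were all counted in these whole animals.

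In the quadruple knockout 5 of the 6 Hox genes of group 13, the group used at the tail end of the body, fell, hoxb13a by 4.36-fold and hoxc13a by 4.21-fold. In groups 1 to 8, 7 of 25 genes rose, with log2 fold changes from 0.24 to 0.46. Calls are those of the quasi-likelihood test in edgeR, at a Benjamini-Hochberg adjusted p under 0.05 over all 22894 genes tested. Of the 48 Hox genes 12 were called, 7 higher and 5 lower, and the CPM of 11 did not overlap between genotypes. The called share, 25%, was close to that over all genes, of which 5910 (25.8%) were called, 3058 higher (13.4%) and 2852 lower (12.5%), and 18% did not overlap. Scaling by library totals alone turned the split over all genes to 4566 higher and 2250 lower and moved the median over all genes from 0.03 to 0.11 on the log2 scale. The Hox count as such was therefore no larger than the background, and what follows describes where in the clusters the called genes lay. The median log2 fold change over the Hox genes was 0.03, the same to 2 decimals as over all genes. In whole animals, fewer cells of a type and less RNA per cell cannot be told apart.

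**Figure D1:**
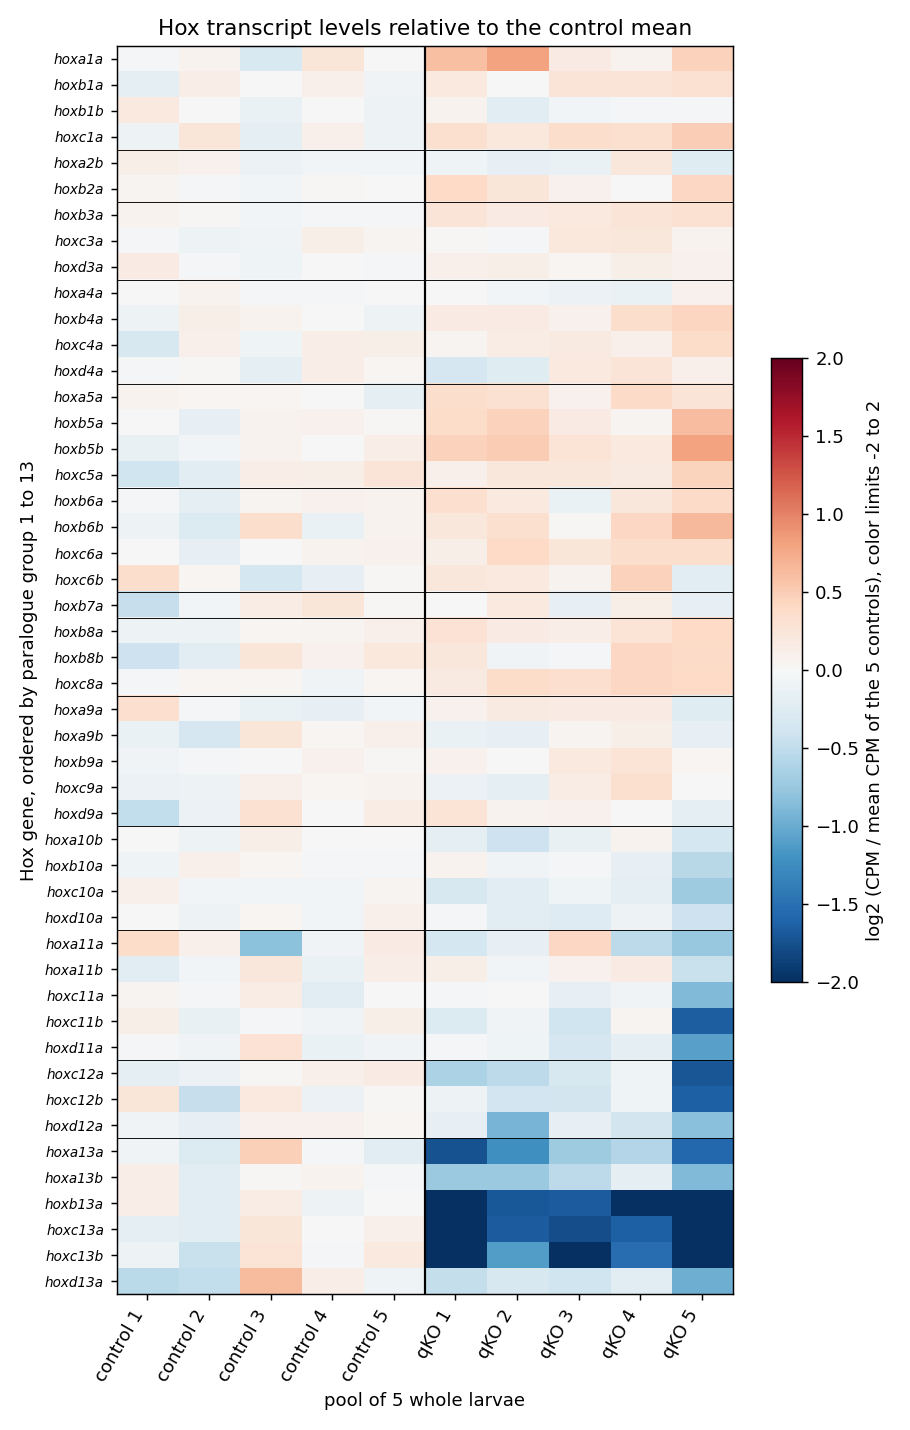
Level of each of the 48 Hox genes (vertical axis, ordered by paralogue group) in each pool of 5 larvae (horizontal axis), as log2 of its CPM over the mean CPM of the 5 controls, with colors limited to -2 and 2. The 5 qKO columns are blue in the group 13 rows at the bottom, dark for hoxb13a, hoxc13a and hoxc13b and paler for hoxa13b and hoxd13a. qKO pool 5 is also blue in groups 10 to 12. Its summed level in groups 11 and 12 was 18.5 CPM against 32.4 to 36.5 CPM in the other qKO pools.

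All 5 lower calls were in group 13, which has 6 genes in the table. hoxb13a (ENSDARG00000056015), the tail end gene of the hoxba cluster, measured 5.24, 4.14, 5.31, 4.47 and 4.84 CPM in control pools 1 to 5 and 0.717, 1.49, 1.52, 0.973 and 0.736 CPM in qKO pools 1 to 5. The highest qKO pool was below the lowest control pool by a wide gap. In the fit it was 4.36-fold lower in qKO, a log2 fold change of -2.12 ± 0.22 (SE; edgeR adjusted p = 4.57e-05). It had the largest fall among the 48 Hox genes and kept its call under all 22 alternative settings. hoxc13a (ENSDARG00000070353), its counterpart in the hoxca cluster, measured 4.00, 3.90, 5.37, 4.53 and 4.90 CPM in control pools 1 to 5 and 0.677, 1.43, 1.33, 1.46 and 0.630 CPM in qKO pools 1 to 5. These groups did not overlap either, and the fall was 4.21-fold, with a log2 fold change of -2.07 ± 0.24 (SE; edgeR adjusted p = 1.00e-04).

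hoxc13b (ENSDARG00000113877), the second copy of hoxc13, was counted at low levels of 1.54, 1.22, 2.00, 1.64 and 1.90 CPM in control pools 1 to 5 and 0.398, 0.769, 0.301, 0.575 and 0.267 CPM in qKO pools 1 to 5. No qKO pool reached a control pool, and the log2 fold change was -1.93 ± 0.29 (SE; edgeR adjusted p = 6.58e-04). In the RefSeq table its span overlaps that of calcoco1b, an autophagy-related coiled-coil gene. calcoco1b itself measured 13.6 ± 1.97 CPM in controls and 4.40 ± 1.72 CPM in qKO (SD, n = 5 each), with a log2 fold change of -1.66 ± 0.28 (SE; edgeR adjusted p = 0.00184). Whether counting used the strand is not given in the sources used here, and only whole spans were compared, not exons. hoxc13b and calcoco1b may therefore share reads, which was not tested, and the call of hoxc13b is uncertain. hoxc12b, whose span overlaps that of calcoco1b as well, had a log2 fold change of -0.46 ± 0.26 (SE, edgeR adjusted p = 0.208). Without hoxc13b, 4 of the other 5 group 13 genes were lower. hoxc13a overlapped no other RefSeq gene. Its next neighbour, calcoco1a, measured 77.8 ± 5.06 CPM in controls and 53.7 ± 10.1 CPM in qKO (SD, n = 5 each), and fell less, by 0.54 on the log2 scale (adjusted p = 0.00451, edgeR).

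The hoxa13 pair, fin and tail genes, also fell, but less. hoxa13a (ENSDARG00000100312) measured 2.03, 1.76, 2.94, 2.06 and 1.83 CPM in control pools 1 to 5 and 0.637, 0.909, 1.30, 1.42 and 0.716 CPM in qKO pools 1 to 5. The groups did not overlap, control pool 3 stood above the other controls, and the log2 fold change was -1.12 ± 0.24 (SE; edgeR adjusted p = 0.00493). hoxa13b (ENSDARG00000036254) measured 3.51, 2.75, 3.25, 3.36 and 3.13 CPM in control pools 1 to 5 and 1.91, 1.92, 2.22, 2.79 and 1.73 CPM in qKO pools 1 to 5. Here qKO pool 4 reached just above control pool 2, so the groups overlapped, and the log2 fold change was -0.62 ± 0.15 (SE; edgeR adjusted p = 0.0104). The RefSeq span of evx1 overlaps hoxa13a and all other hoxaa genes in the table. That of an unnamed locus overlaps hoxa13b and all other hoxab genes. The evx1 row that was counted measured 0.841 ± 0.0921 CPM in controls and 0.992 ± 0.406 CPM in qKO (SD, n = 5 each), below hoxa13a in controls, and did not pass the test (log2 fold change 0.18, adjusted p = 0.638, edgeR).

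hoxd13a (ENSDARG00000059256), the remaining member of group 13, measured 0.924, 0.949, 2.08, 1.47 and 1.26 CPM in control pools 1 to 5 and 0.956, 1.07, 1.01, 1.15 and 0.680 CPM in qKO pools 1 to 5. The groups overlapped, and controls 3 and 4 held the highest values. With a log2 fold change of -0.52 ± 0.24 (SE; edgeR adjusted p = 0.131) it did not pass edgeR's test over all pools. Its value was 0.12 in pools 1 and 2 and -0.86 in pools 3 to 5 (adjusted p = 0.854 and 0.0276, edgeR), so the 2 sets differed in sign, a difference that was not itself tested.

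**Figure D2:**
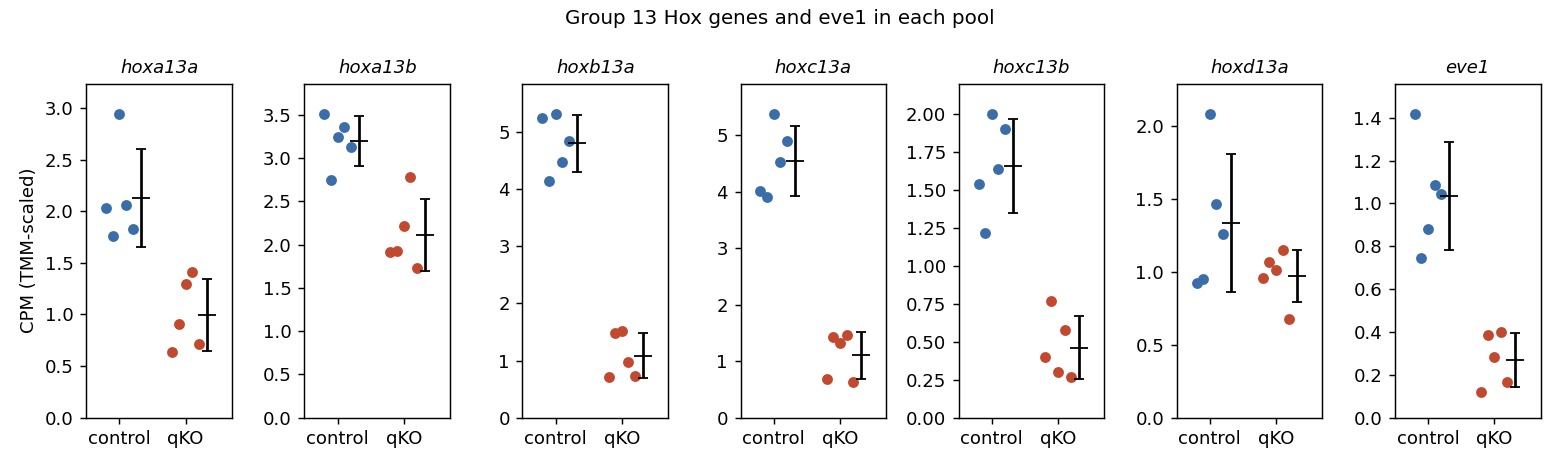
CPM (vertical axis, starting at 0 and scaled for each gene) of the 6 group 13 Hox genes and of eve1 in the 5 control and 5 qKO pools (points), with the mean and SD beside them. hoxb13a runs from 4.14 to 5.31 CPM in controls and from 0.717 to 1.52 CPM in qKO, while hoxd13a overlaps between the genotypes.

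Summed over its 6 genes, group 13 measured 17.7 ± 2.23 CPM in controls and 6.74 ± 1.60 CPM in qKO (SD, n = 5 each), a log2 ratio of -1.39. The lowest control pool, at 14.7 CPM, was above the highest qKO pool, at 8.36 CPM. The sum was not tested, because its members were chosen with results of these data known. The log2 ratio was -1.31 in pools 1 and 2 and -1.44 in pools 3 to 5. The number of group 13 genes called lower was 5 in each of the 10 fits that left out 1 pool, 3 in pools 1 and 2 alone and 6 in pools 3 to 5 alone. The share of all genes called in either direction also differed, at 21.4% in pools 1 and 2 and 41.3% in pools 3 to 5. When each pool set was summed to 1 library per genotype, 4 group 13 genes kept their call in edgeR at 2 against 2, namely hoxb13a, hoxc13a, hoxc13b and hoxa13a (adjusted p = 0.00146, 0.00201, 0.0407 and 0.0466). Of the 22894 genes tested over all pools, that fit called 442 lower.

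The 7 higher calls were all in groups 1 to 8, among 25 genes, and were small. Over all genes 13.4% were called higher. The edge after group 8 lies where these calls end in the same data, so the count describes the pattern and does not test it. hoxb3a, a hindbrain gene, was the most counted of the hoxba cluster and measured 64.4, 62.7, 58.8, 60.4 and 60.4 CPM in control pools 1 to 5 and 73.1, 68.5, 70.6, 73.6 and 75.4 CPM in qKO pools 1 to 5. Every qKO pool was above every control pool, by 1.18-fold on average, with a log2 fold change of 0.24 ± 0.06 (SE; edgeR adjusted p = 0.0125). hoxb5b, an anterior trunk gene and the most counted of the hoxbb cluster, measured 16.9, 18.0, 19.8, 18.8 and 20.5 CPM in control pools 1 to 5 and 25.8, 26.7, 22.6, 21.6 and 32.9 CPM in qKO pools 1 to 5. It had the largest rise among the 48 genes, a log2 fold change of 0.46 ± 0.11 (SE; edgeR adjusted p = 0.00885), with no overlap and with qKO pool 5 highest. hoxc8a, a trunk gene, measured 14.5, 15.3, 15.2, 14.2 and 15.3 CPM in control pools 1 to 5 and 16.8, 19.3, 18.8, 19.8 and 19.6 CPM in qKO pools 1 to 5. Its log2 fold change was 0.34 ± 0.07 (SE; edgeR adjusted p = 0.00546), again without overlap. These 3 genes kept their calls in each fit that left out 1 pool.

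The other 4 higher calls were less stable. hoxc6a measured 8.93, 7.97, 8.87, 9.36 and 9.52 CPM in control pools 1 to 5 and 9.72, 11.8, 10.6, 11.4 and 11.4 CPM in qKO pools 1 to 5, which did not overlap (log2 fold change 0.30 ± 0.09 (SE; edgeR adjusted p = 0.0274)). hoxb8a measured 20.7, 20.7, 22.9, 23.1 and 23.8 CPM in control pools 1 to 5 and 27.2, 24.9, 24.5, 26.7 and 29.2 CPM in qKO pools 1 to 5, also without overlap (log2 fold change 0.25 ± 0.08 (SE; edgeR adjusted p = 0.0276)). hoxc1a, with a log2 fold change of 0.34, and hoxb5a, with 0.35, overlapped between genotypes (adjusted p = 0.0242 and 0.0248, edgeR). In groups 1 to 4 there were 2 higher calls, or 1 without control pool 1, 3 or 5 or qKO pool 3, 4 or 5. In groups 5 to 8 there were 5, or 2 without control pool 1, control pool 2 or qKO pool 5 and 3 without qKO pool 3 or 4. The number of Hox genes called higher was 3 without control pool 1, 4 without control pool 2, 4 without qKO pool 3, 4 without qKO pool 4 and 3 without qKO pool 5. It was 12 with scaling by library totals. With upper-quartile scaling or without a filter it was 5, hoxc6a and hoxb8a losing their calls. With the pool sets summed edgeR called 0 Hox genes higher, 2 being higher at an unadjusted p under 0.05. Of the 48 Hox genes, 15 overlap another Hox gene in the RefSeq table, and hoxb3a, hoxb5a, hoxb5b, hoxc6a and hoxc8a are among them, so their counts may share reads. None of the group 13 genes overlaps another Hox gene.

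The remaining members of groups 1 to 8 did not pass the test. Among them were the most counted genes of the hoxaa, hoxca, hoxda and hoxcb clusters. hoxa4a measured 41.9, 43.9, 40.9, 41.4 and 42.0 CPM in control pools 1 to 5 and 42.3, 40.3, 38.6, 38.3 and 44.5 CPM in qKO pools 1 to 5, with full overlap and a log2 fold change of -0.04; the gene name table gives its identifier as HOXA3, so which of these neighbours was counted is uncertain. hoxc3a measured 31.2, 29.6, 29.9, 34.4 and 32.8 CPM in control pools 1 to 5 and 32.3, 30.9, 36.5, 36.8 and 33.1 CPM in qKO pools 1 to 5, and its log2 fold change was 0.10. hoxd3a measured 30.0, 25.9, 25.3, 26.5 and 25.9 CPM in control pools 1 to 5 and 28.8, 28.9, 27.5, 29.0 and 28.4 CPM in qKO pools 1 to 5, with control pool 1 above all others (log2 fold change 0.10). hoxc6b measured 8.13, 6.54, 4.99, 5.64 and 6.44 CPM in control pools 1 to 5 and 7.41, 7.29, 6.63, 8.76 and 5.44 CPM in qKO pools 1 to 5, which overlapped (log2 fold change 0.16). The 25 genes of groups 1 to 8 ran from a log2 fold change of -0.07 to 0.46, with a median of 0.23, and 21 lay above 0. Median log2 fold changes by group were 0.27, 0.08, 0.10 and 0.09 in groups 1 to 4 and 0.32, 0.25, -0.01 and 0.25 in groups 5 to 8, the single gene of group 7 being hoxb7a.

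Groups 9 to 12, which act in the posterior trunk and tail, lay between these ends. In edgeR 0 of their 17 genes were called, with 4 lower at an unadjusted p under 0.05, while DESeq2 called 2 lower and limma-voom 4 lower. Over all genes edgeR called 12.5% lower. These groups are those between the higher and the lower calls, so the count of 0 follows from where the edges were put. hoxa10b, the most counted gene of the hoxab cluster, measured 12.6, 11.8, 13.6, 12.6 and 12.5 CPM in control pools 1 to 5 and 11.0, 9.45, 11.4, 13.2 and 9.87 CPM in qKO pools 1 to 5, which overlapped through qKO pool 4 (log2 fold change -0.21 ± 0.10 (SE; edgeR adjusted p = 0.141)). Group medians of log2 fold change were 0.04 in group 9, -0.21 in group 10, -0.22 in group 11 and -0.48 in group 12, against -1.53 in group 13. hoxd12a was nearest to a call, at -0.48 ± 0.17 (SE; edgeR adjusted p = 0.0515), and hoxc12a had the lowest value of these 17 genes, -0.59 ± 0.23 (SE; edgeR adjusted p = 0.0794). The call of hoxd12a depended on the settings: edgeR called it lower with DESeq2 size factors, with upper-quartile scaling, without a filter, with a mean of at least 1 CPM, without qKO pool 1 or qKO pool 3, and in pools 3 to 5 alone, as did DESeq2 and limma-voom. Over its 22 alternative settings its adjusted p ran from 0.0132 to 0.291 in these tools. In 10 of the 12 genes of groups 10 to 12, qKO pool 5 was the lowest of the qKO pools. There hoxc12a measured 2.40 CPM against 5.10 to 7.39 CPM in the other qKO pools, and hoxc11b 1.05 CPM against 2.52 to 3.45 CPM. Without qKO pool 5 edgeR still called 0 genes in groups 9 to 12, and it called 1 lower without qKO pool 1, 1 without qKO pool 3 and 2 without qKO pool 4. The 5 group 13 calls held without qKO pool 5.

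All 18 genes of groups 10 to 13 had a log2 fold change below 0, and 25 of the 30 genes of groups 1 to 9 one above 0. The cut between groups 9 and 10 lies where the group medians of these same data change sign, from 0.04 to -0.21. Counts on either side of it therefore describe the pattern and do not test it. With scaling by library totals these counts were 17 of 18 and 30 of 30, with DESeq2 size factors 18 of 18 and 24 of 30, and with upper-quartile scaling 18 of 18 and 22 of 30. Across the 48 genes Spearman's rho between paralogue number and log2 fold change was -0.77, and -0.66 across the 42 genes outside group 13. It was -0.55 in pools 1 and 2 and -0.81 in pools 3 to 5. These are descriptions across genes measured in the same libraries, and genes of one cluster are not independent of each other.

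**Figure D3:**
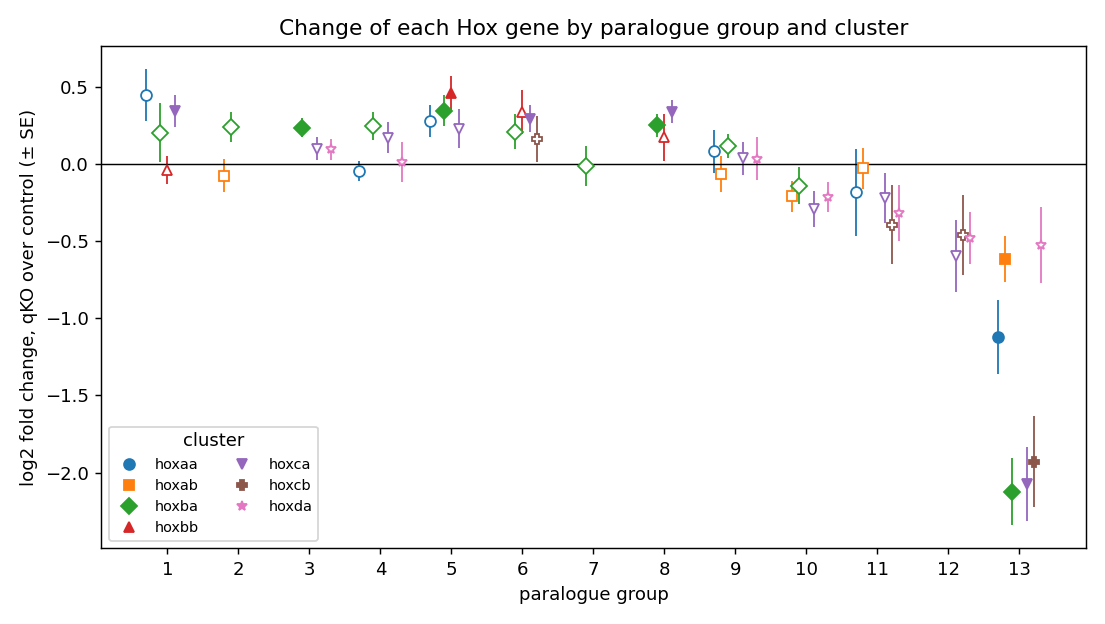
Log2 fold change of each Hox gene, qKO over control, with its SE (vertical axis) by paralogue group (horizontal axis), with color and marker for the cluster and filled markers for genes called at an adjusted p under 0.05 by edgeR. Filled markers above 0 lie in groups 1 to 8, up to 0.46 for hoxb5b, and those below 0 lie in group 13, down to -2.12 for hoxb13a.

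Each of the 6 clusters that hold a group 13 gene had its lowest log2 fold change in that gene. The same held in 5 of the 6 clusters in pools 1 and 2, hoxda being the exception, and in 6 of 6 in pools 3 to 5. The margin in hoxda was small, hoxd13a being at -0.52 ± 0.24 and hoxd12a at -0.48 ± 0.17 (SE). With the pool sets summed hoxd12a was the lower, at -0.62 against -0.49 for hoxd13a. So it was without control pool 3, at -0.46 against -0.31, and with the replicate number as a block, at -0.50 against -0.48. The hoxba cluster, for example, ran from 0.35 for hoxb5a to -2.12 for hoxb13a. Its next posterior gene in the table, hoxb10a, had a log2 fold change of -0.14 and was not called (adjusted p = 0.415, edgeR). In the hoxca cluster the values were -0.29 for hoxc10a, -0.22 for hoxc11a, -0.59 for hoxc12a and -2.07 for hoxc13a, of which edgeR called the last. The hoxbb cluster, which has no gene above group 8 in the table, had a median of 0.26, the highest of the 7 clusters, and the hoxcb cluster, with members of groups 6, 11, 12 and 13, had the lowest, -0.43. Of the 11 pairs of a and b copies 9 had the same sign, the exceptions being hoxb1 and hoxa9, whose members were not called. Over all pools hoxc13a and hoxc13b fell by nearly the same amount, 2.07 and 1.93 on the log2 scale. By set their log2 fold changes were -1.80 and -1.12 in pools 1 and 2 and -2.30 and -2.53 in pools 3 to 5. The value of hoxc13b is uncertain, as its span overlaps calcoco1b. hoxa13a fell by 1.12 and hoxa13b by 0.62. Differences within pairs were not tested.

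The summed Hox level was slightly higher in every qKO pool than in every control pool. Over the 48 genes it was 516 ± 11.7 CPM in controls and 549 ± 11.5 CPM in qKO (SD, n = 5 each), a log2 ratio of 0.09. That ratio was 0.05 with upper-quartile scaling and 0.17 with library totals. The make-up of the Hox counts differed more. Group 13 took 2.94% to 4.00% of the Hox counts of a control pool and 0.852% to 1.49% of those of a qKO pool, and groups 5 to 8 took 25.9% to 27.9% and 28.9% to 34.5%. In both classes the genotypes did not overlap. Groups 11 and 12 took 7.01% to 8.01% in controls and 6.00% to 6.49% in qKO pools 1 to 4, with qKO pool 5 apart at 3.31%. Groups 1 to 4 overlapped, at 42.6% to 47.8% and 45.5% to 48.2%. These shares add to a whole in each pool, so a fall in one class raises the others.

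**Figure D4:**
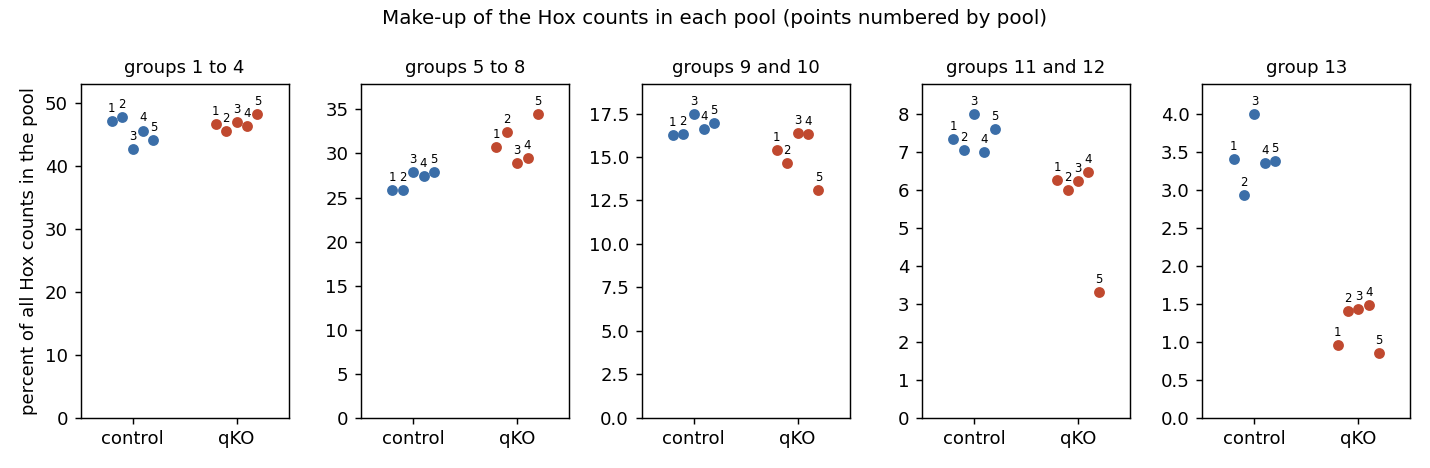
Percent of all Hox counts of a pool (vertical axis, starting at 0) in 5 classes of paralogue groups, for the 5 control and 5 qKO pools, with points numbered by pool. Group 13 takes at least 2.94% in each control pool and at most 1.49% in each qKO pool, and qKO pool 5 lies apart in groups 11 and 12 at 3.31%.

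Between the pool sets 39 of the 48 Hox genes had the same sign, and 5 of the 6 in group 13. Pools 1 and 2 alone gave 6 calls among the 48 Hox genes in edgeR, against 4756 among all 22184 genes tested (21.4%). Of the 6, 3 were higher (hoxb5a, hoxb5b and hoxc5a) and 3 lower (hoxa13a, hoxb13a and hoxc13a). Pools 3 to 5 alone gave 11 calls among the 48 Hox genes, against 9551 among all 23104 genes tested (41.3%). Of the 11, 3 were higher (hoxc1a, hoxb3a and hoxc8a) and 8 lower, the latter being the 6 group 13 genes, hoxd10a and hoxd12a. In each set the called share of Hox genes was below that of all genes. hoxb13a and hoxc13a were lower in both sets, with log2 fold changes of -1.97 and -1.80 in pools 1 and 2 and -2.25 and -2.30 in pools 3 to 5. hoxc13b moved from -1.12 to -2.53, and missed the threshold in pools 1 and 2 (adjusted p = 0.0655, edgeR). Differences between the sets were not tested.

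**Figure D5:**
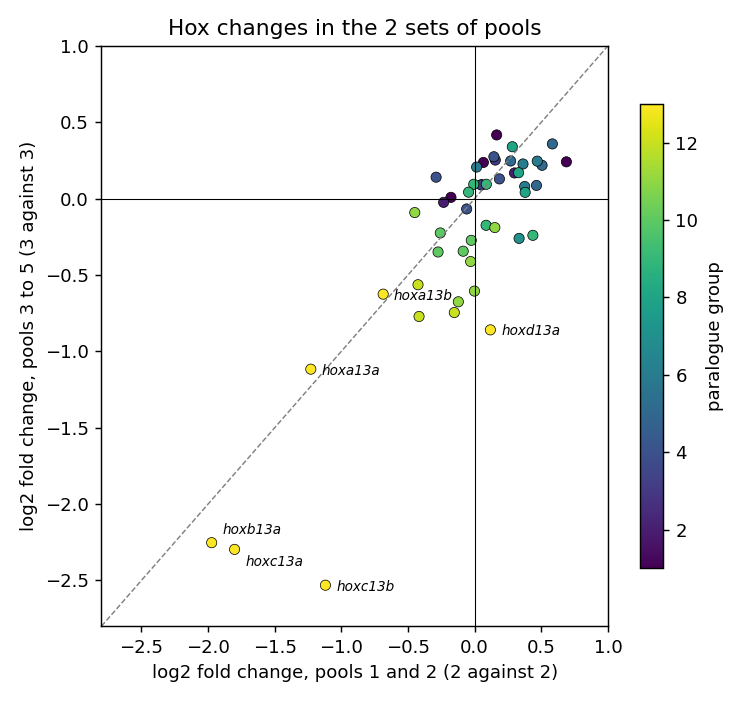
Log2 fold change of each of the 48 Hox genes, qKO over control, in pools 1 and 2 (horizontal axis) and in pools 3 to 5 (vertical axis), colored by paralogue group, with a dashed line where both are equal. hoxb13a, hoxc13a, hoxc13b, hoxa13a and hoxa13b lie below 0 on both axes, and hoxd13a lies at 0.12 in pools 1 and 2 and at -0.86 in pools 3 to 5.

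Genes that flank the clusters were compared next. eve1, a relative of even-skipped that is used in the tail bud and lies directly beside hoxb13a, was singled out after its values were seen. It measured 1.42, 0.746, 0.879, 1.09 and 1.04 CPM in control pools 1 to 5 and 0.119, 0.384, 0.285, 0.398 and 0.166 CPM in qKO pools 1 to 5. No qKO pool reached a control pool, and the log2 fold change was -1.96 ± 0.31 (SE; edgeR adjusted p = 9.06e-04), with an adjusted p of 0.0171 when the pool sets were summed. In qKO pool 1 eve1 was at the level that 3 counts stood for, so the size of its fall is imprecise. evx2, which lies directly beside hoxd13a, measured 12.8, 11.8, 11.0, 12.1 and 11.1 CPM in control pools 1 to 5 and 16.6, 14.5, 16.2, 13.8 and 16.7 CPM in qKO pools 1 to 5. It was higher in every qKO pool, with a log2 fold change of 0.41 ± 0.09 (SE; edgeR adjusted p = 0.00442), whereas its neighbour hoxd13a did not pass the test. Among all genes tested 13.4% rose and 12.5% fell. The list of caudal genes and neighbours leaves out eve1, which fell, and also holds gdf11 and tbxta. Of the 7 tested rows in that list, 3 rose and 0 fell in edgeR, 1 being lower at an unadjusted p under 0.05, while DESeq2 called 0 lower and limma-voom 1. Besides evx2 these were cdx1a, a caudal gene that regulates Hox genes, with a log2 fold change of 0.67 ± 0.18 (SE; edgeR adjusted p = 0.0159), and gdf11, with 0.75 ± 0.22 (SE; edgeR adjusted p = 0.0258); edgeR's call of gdf11 was lost without control pool 3, control pool 4 or qKO pool 3, 4 or 5. In pools 1 and 2 alone edgeR called 0 of the 7, 2 being higher at an unadjusted p under 0.05, and the log2 fold changes were 0.33 for evx2, 0.58 for cdx1a and 0.25 for gdf11 (adjusted p = 0.101, 0.0570 and 0.690, edgeR). In pools 3 to 5, where 41.3% of all genes were called in either direction, it called 3 higher and 1 lower, with 0.96 for gdf11. With the pool sets summed it called 0, again with 2 higher at an unadjusted p under 0.05. cdx4, another caudal gene, had a log2 fold change of -0.56 ± 0.25 (SE; edgeR adjusted p = 0.120) and did not pass, and tbxta, a notochord and tail bud gene, had 0.12 (adjusted p = 0.491, edgeR).

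The TALE proteins of the pbx, meis and pknox families bind DNA together with Hox proteins. In edgeR 7 of 14 rows of these cofactors rose and 0 fell, with 0 lower at an unadjusted p under 0.05 or in DESeq2 and limma-voom. Of all genes 13.4% rose and 12.5% fell. The median log2 fold change of the 14 rows was 0.25. The lowest p-values belonged to meis2a, which has 2 rows with log2 fold changes of 0.40 and 0.44, and to meis1b, at 0.36 ± 0.07 (SE; edgeR adjusted p = 0.00249). The background differed between the pool sets, with 21.4% of all genes called in pools 1 and 2 and 41.3% in pools 3 to 5. edgeR called 3 cofactor rows higher in pools 1 and 2, where their median was 0.17. In pools 3 to 5 it called 10 higher, with a median of 0.38. The number that rose was 4 without control pool 3, control pool 5, qKO pool 3, qKO pool 4 or qKO pool 5, and with the pool sets summed edgeR called 0, with 2 higher at an unadjusted p under 0.05.

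Retinoic acid is a signal that switches on anterior Hox genes. Of 23 genes of its synthesis, breakdown and reception, 4 rose and 6 fell in edgeR, with a median log2 fold change of -0.05. Over all genes 13.4% rose and 12.5% fell. With library totals 6 of the 23 rose and 5 fell, and the median became 0.03. dhrs3a, an enzyme that limits retinoic acid synthesis, fell by 1.01 on the log2 scale (adjusted p = 4.78e-04, edgeR), from 19.9 ± 1.97 CPM in controls to 9.90 ± 2.37 CPM in qKO (SD, n = 5 each). Of the 23 genes it was the one that edgeR still called with the pool sets summed, at an adjusted p of 0.0423. crabp2b, a retinoic acid binding protein, rose by 0.54 (adjusted p = 0.00140, edgeR). The 3 cyp26 genes, whose enzymes break down retinoic acid, all fell, cyp26a1 by 0.67, cyp26b1 by 0.40 and cyp26c1 by 0.77 on the log2 scale (adjusted p = 0.00453, 0.00263 and 0.00356, edgeR). aldh1a2, a main retinoic acid producing enzyme, rose by 0.38 (adjusted p = 0.0177, edgeR). That rise was lost without control pool 1 or qKO pool 3, and was 0.66 in pools 1 and 2 against 0.17 in pools 3 to 5 (adjusted p = 0.00108 and 0.139, edgeR). aldh1a3, another retinoic acid producing enzyme, fell by 0.32 on the log2 scale (adjusted p = 0.0274, edgeR), a call lost without control pool 2, 3 or 5 or qKO pool 3 or 4. cyp26a1, cyp26c1, aldh1a2 and aldh1a3 were named after their values were seen. By pool set, 4 rose and 5 fell in pools 1 and 2, and 7 rose and 6 fell in pools 3 to 5. Of all genes 21.4% and 41.3% were called in these sets, in either direction.

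Polycomb proteins keep Hox genes silent and trithorax proteins keep them active. In edgeR 3 of 20 Polycomb genes rose and 3 fell, the latter being 1 without control pool 4 or 5. As 13.4% of all genes rose and 12.5% fell, these counts and those of the trithorax genes below were near the background. suz12a, a subunit of the complex that methylates histone H3, rose by 0.57 and jarid2a, its partner, by 0.40, whereas ezh1, one of its methyltransferases, fell by 0.66 on the log2 scale (adjusted p = 2.08e-04, 0.00549 and 0.00274, edgeR). The related methyltransferase gene ezh2, named beyond the 3 with the lowest p, went the other way and rose by 0.50 (adjusted p = 0.00929, edgeR). Its rise was 0.24 in pools 1 and 2 (adjusted p = 0.171, edgeR). Of 9 trithorax genes 1 rose, wdr5 with a log2 fold change of 0.37, and 1 fell, men1 with -0.25 (adjusted p = 0.0147 and 0.0457, edgeR). The rise of wdr5 was lost without qKO pool 4 or 5, and the fall of men1 without any 1 of control pools 3 to 5 or qKO pools 3 to 5. In pools 1 and 2 the log2 fold change of jarid2a was 0.14 and that of men1 -0.02 (adjusted p = 0.364 and 0.941, edgeR). In those pools 1 Polycomb gene rose and 1 fell, and in pools 3 to 5, 4 rose and 4 fell; of the trithorax genes 1 rose and 1 fell, and 2 rose and 1 fell. With the pool sets summed edgeR called 0 in either list, with 3 Polycomb genes higher and 2 lower and 1 trithorax gene higher at an unadjusted p under 0.05. The medians were 0.05 for Polycomb and -0.0023 for trithorax genes. The share of all genes called in either direction was 21.4% in pools 1 and 2 and 41.3% in pools 3 to 5.

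Some listed markers of tissues also moved with the genotype, and their part in the Hox results was not tested. Their counts stand beside 13.4% of all genes called higher and 12.5% called lower. By set, 21.4% of all genes were called in pools 1 and 2 and 41.3% in pools 3 to 5, in either direction. The 5 epidermis markers all fell in edgeR, with a median log2 fold change of -0.91, and their summed level was 15055 to 19448 CPM in controls and 8426 to 13251 CPM in qKO. Without control pool 3, qKO pool 3 or qKO pool 4, 3 of the 5 were called. In the pectoral fin list 3 of 6 markers fell and 1 rose. The 3 that fell were the actinodin genes and1, and2 and and3, which build the fibers of fin folds, with log2 fold changes of -0.62, -0.90 and -0.66 (adjusted p = 0.00503, 0.00249 and 0.00586, edgeR), and the one that rose was tbx5a, at 0.76 (adjusted p = 0.0139, edgeR). The value of tbx5a was 0.27 in pools 1 and 2 and 1.01 in pools 3 to 5 (adjusted p = 0.492 and 0.00338, edgeR), and the 3 actinodin genes were lower in both sets. The summed pectoral fin list ran from 1040 to 1196 CPM in controls and from 414 to 810 CPM in qKO. In a fin fold list written after the Hox values were seen, 4 of 16 tested genes rose, or 2 without control pool 3, control pool 5, qKO pool 3 or qKO pool 4, and 4 fell, its summed level being 1335 to 1533 CPM in controls and 830 to 1355 CPM in qKO. The 4 that fell were fbln1 and the same 3 actinodin genes. Because both lists hold these 3 genes, which make up most of both sums in controls, the lists are not independent. In pools 1 and 2 edgeR called 0 higher (1 at an unadjusted p under 0.05) and 5 lower of 16, with a median of -0.17, and in pools 3 to 5 it called 8 higher and 6 lower of 17, with a median of 0.27. With the pool sets summed it called 0 higher, also at an unadjusted p, and 2 lower. A tail bud list, also written after the Hox values were seen, had 0 higher and 2 lower of 10 tested genes, eve1 and cyp26a1, and summed levels of 42.2 to 53.0 CPM and 40.2 to 45.0 CPM, which overlap. DESeq2 called 0 higher and 3 lower and limma-voom 0 higher and 4 lower, and 1 gene was higher at an unadjusted p under 0.05 in edgeR. Among the rest, cdx4, fgf8a and msgn1 had unadjusted p-values under 0.05 and did not pass, with log2 fold changes of -0.56, -0.29 and 0.77 in edgeR. Most of the summed tail bud level came from cyp26a1, bmp4 and tbxta, with means of 15.8, 14.2 and 8.94 CPM in controls. Control means of tbx16, wnt3a, her7 and msgn1 were 0.830, 0.728, 0.213 and 0.186 CPM. The list therefore does not show that tail bud tissue was present in these larvae.

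Markers of the nervous system, where anterior Hox genes are used, were counted too. In edgeR 3 of 12 neuron markers rose and 2 fell (median log2 fold change -0.01, summed level 2373 to 2852 CPM in controls and 2484 to 2724 CPM in qKO). Of the neural progenitor and radial glia markers 2 of 6 rose (summed level 606 to 772 CPM in controls and 752 to 993 CPM in qKO), and of the motor neuron markers 1 of 8 rose (170.0 to 180.4 CPM and 164 to 221 CPM). Of the hindbrain markers 2 of 5 rose and 1 fell (144 to 168 CPM and 163 to 175 CPM), and of the 11 markers of the forebrain and midbrain, where Hox genes are silent, 1 fell (259 to 286 CPM and 257 to 315 CPM). The counts of these last 4 lists rest on few genes. With 13.4% of all genes higher and 12.5% lower, those of motor neurons and of the forebrain and midbrain were near or below the background. The progenitor count was 0 without control pool 1, control pool 4 or qKO pool 5, and 1 without control pool 2, control pool 5 or qKO pools 1, 3 or 4. The motor neuron count was 0 without control pool 1, control pool 4, qKO pool 4 or qKO pool 5. The hindbrain markers that rose numbered 0 or 1 without any 1 pool, and the 1 that fell lost its call without any 1 of control pools 2 to 5 or qKO pools 3 to 5.

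In the other tissues 4 of 5 cartilage markers rose, or 2 without control pool 4 or 5, with summed levels of 2444 to 3806 CPM in controls and 3850.0 to 5277 CPM in qKO. Of the blood markers 3 of 5 rose (298 to 339 CPM and 341 to 805 CPM). Of the intestine markers 2 of 5 fell (1115 to 1424 CPM and 731 to 1201 CPM), and of the skeletal muscle markers 1 of 6 fell (23296 to 27740.4 CPM and 19772 to 25157 CPM), a count that was 0 without any 1 of control pools 3 to 5 or qKO pools 3 to 5 and 2 without qKO pool 1. In pools 1 and 2 against pools 3 to 5 the calls were 4 and 4 epidermis markers lower, 4 and 5 cartilage markers higher, 3 and 1 blood markers higher, 1 and 3 intestine markers lower, and 1 and 4 skeletal muscle markers lower. Of the neuron markers 1 was higher in pools 1 and 2, and 4 were higher and 4 lower in pools 3 to 5. Among all genes 21.4% and 41.3% were called in these sets, in either direction. Over all pools 13.4% of all genes rose and 12.5% fell, so 1 of 6 muscle markers lower was near the background. With the pool sets summed edgeR called 0 markers of epidermis, cartilage and blood, with 4 lower, 4 higher and 3 higher at an unadjusted p under 0.05. No row of these tissue lists was at 0 in all pools, except 1 of 13 in the tail bud list.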

How the data were processed

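Per the labels' protocols, RNA was extracted with a Qiagen RNeasy kit from pools of 5 whole animals, and libraries were made with the TruSeq Stranded Total RNA kit. The authors deposited raw read counts per Ensembl gene for 10 libraries, without normalization, 1 column per pool. Per the submitters' processing notes the tools were FastQC 0.11.9, Trim Galore 0.6.6, featureCounts, Subread 2.0.0 and MultiQC 1.9, on build GRCz11. The aligner, the annotation release and the use of strand are not given in the sources used here. The other 30 samples of the series were not analysed here.

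The fit used edgeR 4.0.16 in R 4.3.3 (filterByExpr, TMM, robust quasi-likelihood test, Benjamini-Hochberg adjustment over all genes tested, no covariates). CPM are TMM-scaled. Standard errors were derived from the test statistic. The biological coefficient of variation was 16.8%. Counts of 3 stood for 0.0157 to 0.187 CPM before TMM scaling, so low genes are least precise in the smallest libraries. Pools of a genotype differed beyond counting error (a chi-square of 5.52 to 133 per degree of freedom).

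Alternatives in scaling were library totals, the upper quartile and DESeq2 size factors, and in filtering a mean of at least 1 CPM or none. Others were limma-voom (limma 3.58.1), the Wald test of DESeq2 1.42.0, the replicate number as a block, a threshold of 0.01, each pool left out in turn, either pool set alone, and the pool sets summed. The members and lists were chosen with earlier results of these data known. Values in every pool were given for called genes without overlap and for the most counted gene of each cluster, and at most 3 called genes with the lowest p were named from each list, apart from exceptions stated. The group 13 counts and sums and the fin fold and tail bud lists were added after the Hox values were seen. The plan named clusters and paralogue groups, not the classes that join several groups.

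In counts simulated for this comparison from the real means and library sizes, the fit recovered 40% of 50 genes changed by 0.5 on the log2 scale, 100% of 100 at 1 and 100% of 50 at 2, with 12 false calls among 22760 unchanged genes. The simulation held no pool sets. It gave every gene the same biological coefficient of variation, 16.8%, and changed only genes with means between 1 and 100 CPM. Its recovery and false calls therefore need not hold for the real genes, whose spread differs. Neighbours and overlaps were read from the RefSeq table of GRCz12tu, in which all 48 Hox symbols were found; as the build differs from that of the counts, no coordinates are given. All 48 Ensembl identifiers were in the gene name table, 15 with the same symbol. No sequences were printed, because none were used here.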

Additional observations from a re-analysis of the deposited data

Results flagged for a closer look

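Values of 1 pool far from the other 4 of its genotype were looked for in each Hox gene, in summed levels and in shares. Of 118 groups of 5 pools examined 11 held such a value by Dixon's test, and chance gives about 1 in 20. The groups are not independent, because the sums and shares are built from the same genes, so the count does not test an excess. In 5 of the 11, qKO pool 5 was low. It measured 2.62 CPM for hoxa9a (3.27 to 3.48 CPM in the other qKO pools), 3.12 CPM for hoxc11a (5.14 to 5.75 CPM) and 1.00 CPM for hoxc12b (2.38 to 2.92 CPM). Over groups 11 and 12 it had a summed level of 18.5 CPM (32.4 to 36.5 CPM), which was 3.31% of its Hox counts (6.00% to 6.49%). qKO pool 4 was high for hoxa2b at 9.47 CPM (6.87 to 7.61 CPM). Among controls, pool 1 was high for hoxd3a at 30.0 CPM (25.3 to 26.5 CPM) and for hoxa9a at 3.88 CPM (2.74 to 3.02 CPM). Control pool 3 was high for hoxd11a at 7.99 CPM (5.94 to 6.35 CPM) and for hoxa13a at 2.94 CPM (1.76 to 2.06 CPM). Control pool 5 was low for hoxa5a at 4.02 CPM (4.57 to 4.74 CPM).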

How the results depend on the processing

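The 4 largest group 13 falls kept their direction under all 22 alternatives, and 3 of them their call, hoxc13b losing it in pools 1 and 2 alone. The rises in groups 1 to 8 depended more on the settings. With library totals 12 Hox genes rose and the log2 ratio of summed Hox levels was 0.17. With upper-quartile scaling 5 rose and the ratio was 0.051. limma-voom called 9 Hox genes lower. At an adjusted p under 0.01 there were 2797 calls over all genes (1363 higher, 1434 lower) and 6 among Hox genes (2 higher). Pools 1 and 2 alone gave 6 Hox calls, 3 higher and 3 lower, the latter 3 in group 13. Pools 3 to 5 alone gave 9551 calls (4637 higher, 4914 lower), with 3 Hox genes higher and 8 lower. With the pool sets summed 700 genes were called (222 higher, 478 lower), of which 4 were Hox genes and 0 of these higher. Leaving out 1 pool gave 4309 to 6364 calls over all genes (1966 to 3141 higher, 2160.0 to 3223 lower) and 8 to 13 among Hox genes (3 to 7 higher, 5 to 7 lower). In at least 1 of 21 alternative fits the sign turned for 11 of the 48 Hox genes, none of them called in all pools: 7 in pools 1 and 2, hoxd13a (0.12) among them, and 6 with library totals, hoxa4a (0.040) among them, were the most in any fit. The causes were not tested. Replicate numbers did not pair the samples: same-numbered pools had correlations of deviations from -0.15 to -0.00017. The fit with the replicate number as a block called 4543 genes and 8 Hox genes, of which 3 were higher and 5 lower. No control pool correlated best with the qKO pool of its own number. Counts are few for hoxb1a, hoxa11a, hoxd13a and hoxc13b, whose means in qKO were 0.462 to 0.973 CPM, and for eve1, at 0.271 CPM. They are also few for hoxa13a, hoxb13a and hoxc13a in the smaller qKO libraries. These genes had 16, 18 and 17 counts in qKO pool 1 and 32, 22 and 33 in qKO pool 4.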
